A study of Mus musculus with 12 samples.

Results

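Cadherins are calcium-dependent adhesion proteins, and this account covers 35 mouse genes of that superfamily: the 23 protein-coding genes whose symbol is Cdh followed by a number, and the 12 whose symbol is Pcdh followed by a number, with an optional letter x. They were picked by symbol among 55487 gene identifiers, 21974 of them protein-coding, by a rule that uses no measured value. The choice of this set was made with earlier results of these data known. The clustered protocadherins and the Cdhr genes were left out. The libraries came from 12 male mice, 3 to a group, to ask what loss of the long isoform of Auts2, a neurodevelopmental regulator, does in the brain. At postnatal day 0 (P0) the forebrain was taken from Cmv-cre, Auts2-ex7 knockouts (ex7koko), in which exon 7 of Auts2 was deleted on both alleles by a Cre active throughout the body, and from wild-type littermates labelled BL6 WTLM. At postnatal day 14 (P14) the hippocampus was taken from Nes-cre, Auts2-ex7 knockouts, in which the deletion is driven in neural progenitors and their progeny, and cells outside that lineage, such as microglia and vessels, keep the gene. The P14 controls are labelled auts2-ex7-fl-het, heterozygous for the floxed allele, and the labels do not say whether they carry Nes-cre. The contexts also differ in tissue, age, Cre line and type of control, which cannot be told apart.

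Classical cadherins bind the same cadherin on a neighbouring cell and hold on to actin through catenins. Type I members such as N-cadherin (Cdh2) bind strongly and hold neuroepithelium and synapses together, whereas the type II members are expressed in mosaics that differ between brain nuclei, layers and hippocampal fields. The non-clustered delta-protocadherins bind more weakly, do not bind beta-catenin, and several of them recruit the WAVE actin regulators, with roles in axon growth, sorting and synapse removal. In the hippocampus Cdh9 is known for its part in the synapses that dentate granule cells make on CA3 neurons.

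The promoters of Cdh6, Cdh7, Cdh18 and Pcdh10 are shown because these genes were lower in every knockout than in any control at P0 and higher in every knockout than in any control at P14. Each line gives the 250 bases before the RefSeq start (GRCm38.p6), 5′ to 3′ on the strand of the gene. Capitals mark CCAAT, the box bound by the general factor NF-Y, and GGGCGG, the GC box bound by Sp1-type factors, on either strand. The stretches are chr15:13173676-13173925 on the minus strand for Cdh6, and on the plus strand chr1:109982650-109982899 for Cdh7, chr15:23036213-23036462 for Cdh18 and chr3:45378148-45378397 for Pcdh10. The RefSeq starts used for Cdh7 and Cdh18 lie inside the annotated gene span, downstream of its first base. For Cdh7 the start is near that base. For Cdh18 it is far inside the span (chr15:22549022-23474418), so the stretch shown does not precede the first base of the annotated gene. The windows of Cdh12 and Pcdh15, counted below, also lie far inside their gene spans. RefSeq lists 3 starts for Cdh7, of which the first is shown, and the window of the last holds no CCAAT.
Cdh6: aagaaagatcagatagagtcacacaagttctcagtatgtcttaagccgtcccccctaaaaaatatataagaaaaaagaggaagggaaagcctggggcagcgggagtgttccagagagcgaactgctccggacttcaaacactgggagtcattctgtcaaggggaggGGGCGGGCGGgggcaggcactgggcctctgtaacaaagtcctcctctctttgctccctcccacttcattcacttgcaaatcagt
Cdh7: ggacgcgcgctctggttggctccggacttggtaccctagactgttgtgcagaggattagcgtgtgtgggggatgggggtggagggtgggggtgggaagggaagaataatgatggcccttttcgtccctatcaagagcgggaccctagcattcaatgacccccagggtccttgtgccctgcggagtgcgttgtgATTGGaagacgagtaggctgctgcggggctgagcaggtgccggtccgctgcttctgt
Cdh18: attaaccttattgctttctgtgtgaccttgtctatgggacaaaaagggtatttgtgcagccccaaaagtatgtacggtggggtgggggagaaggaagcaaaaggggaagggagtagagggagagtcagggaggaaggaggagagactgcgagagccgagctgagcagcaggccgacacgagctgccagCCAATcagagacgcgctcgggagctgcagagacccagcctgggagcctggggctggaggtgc
Pcdh10: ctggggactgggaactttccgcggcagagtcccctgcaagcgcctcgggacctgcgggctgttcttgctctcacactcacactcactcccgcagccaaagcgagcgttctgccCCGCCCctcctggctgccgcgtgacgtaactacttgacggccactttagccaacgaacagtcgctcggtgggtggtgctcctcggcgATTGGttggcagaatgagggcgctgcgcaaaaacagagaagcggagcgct

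No single box was common to the printed stretches. Cdh7, Cdh18 and Pcdh10 each held 1 CCAAT, Cdh6 held none, and Cdh6 held 2 overlapping GC boxes where Pcdh10 held 1. RefSeq gave 25 promoter windows of 300 bases (250 before and 50 after the start) for 22 of the 35 members. Over these windows CCAAT was found in 68% and over all 32851 windows of that length in 37.4%, on either strand. GGGCGG was found in 36% of the members' windows and 35.7% of all, CANNTG in 60% and 72.3%, and TATAAA in 8% and 13.6%. The NRF1-like palindrome was in none of the members' windows and in 6.23% of all. The members' windows held a median of 14 CpG dinucleotides, against 7 over all windows. The set of all windows covers 27025 gene symbols and was not limited to protein-coding genes, whereas every member is protein-coding. These are counts of letters, windows of 1 gene can overlap, and none was tested. No entry was found for Cdh1, Cdh2, Cdh3, Cdh4, Cdh5, Cdh11, Cdh13, Cdh16, Cdh17, Cdh19, Pcdh1, Pcdh11x or Pcdh12.

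The libraries held from 11247150 to 23340621 counts in genes. Auts2 counts sum all isoforms and so do not check the deletion. Auts2 stood at 165, 182 and 161 CPM (counts scaled to a common library size) in the P0 knockouts and 160.4, 136 and 155 CPM in the P0 wild types. It stood at 93.0, 77.5 and 75.2 CPM in the P14 knockouts and 97.5, 98.0 and 110.3 CPM in the P14 controls, and its difference did not pass the test in either context (edgeR quasi-likelihood test with Benjamini-Hochberg adjustment, adjusted p 0.362 at P0 and 0.111 at P14). Markers of cortical excitatory neurons at P0, and of dentate granule and CA pyramidal cells at P14, were detected in every library of those ages. Libraries 1415 and 1416, 1 of each P0 genotype, carry numbers apart from the other P0 libraries (1407 to 1410). At P14, control replicate 3 stood furthest from its group. In bulk tissue, fewer cells of a type and less RNA per cell cannot be told apart.

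Among the members, N-cadherin was the most abundant transcript of the newborn forebrain and Pcdh1 of the P14 hippocampus. Levels were compared between genes as CPM per kilobase of exon, because long transcripts gather more reads. In the P0 wild types Cdh2 was at 33.8 ± 2.23 CPM per kilobase (SD, n = 3). Cdh4 (R-cadherin, the closest type I relative of Cdh2) followed at 18.7 ± 1.04 and Cdh8 (type II) at 15.3 ± 1.13 CPM per kilobase (SD, n = 3 each). Below Cdh4 the order was not resolved, since Cdh8, Pcdh10 (14.4 ± 1.04), Cdh13 (13.9 ± 1.02) and Pcdh8 (13.7 ± 0.442) lay within their SDs of each other on that scale. In the P14 controls Pcdh1 led with 36.5 ± 4.76 CPM per kilobase, followed by Pcdh20 with 27.7 ± 1.97 and Pcdh9 with 19.8 ± 0.742 (SD, n = 3 each). Cdh2 (15.7 ± 0.257) and Cdh11 (15.2 CPM per kilobase) came next. Several members known from other organs were near the bottom. Cdh16, a kidney cadherin, had 0 counts in 10 of 12 libraries and 1 count in the others, and Cdh17, of liver and intestine, had at most 11 counts in any library.

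**Figure D1:**
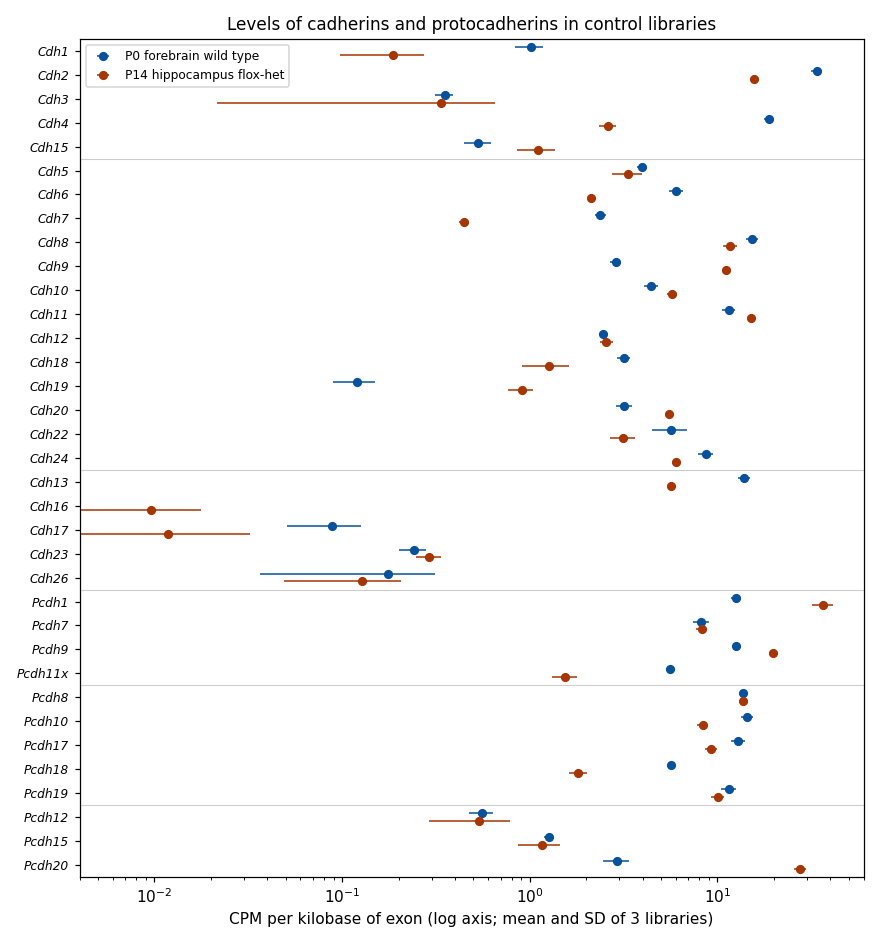
Mean level of each member in the 3 control libraries of each context, in CPM per kilobase of exon on a log axis, with bars for the SD (cut at the left edge) and grey lines between the families; Cdh16 has no P0 point because it was at 0. Compared with their own points in the other context, Cdh4, Cdh7 and Pcdh11x lie far to the right at P0, and Pcdh20, Cdh9 and Cdh19 at P14.

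The repertoire differed between the control groups of the contexts for 23 of 32 tested members, 9 higher and 14 lower at P14, against 64.7% of all genes tested. The share of members (71.9%) is therefore near that of genes at large. In 23 members the control groups did not overlap, against 69.1% of all genes. Pcdh20 had the largest rise, from 16.0 to 152 CPM, a log2 difference of 3.24 with an SE of 0.11 (edgeR adjusted p 4.79e-13). Cdh19, a cadherin of the Schwann and oligodendrocyte lineages, was 2.92 higher on the log2 scale, Cdh9 1.95 and Pcdh1 1.52 higher. Cdh4 had the largest fall, from 136 to 19.0 CPM (log2 difference -2.85, SE 0.09, edgeR adjusted p 4.79e-13). Cdh1 (E-cadherin, -2.43), Cdh7 (-2.42), the X-linked Pcdh11x (-1.86), Pcdh18 (-1.65) and Cdh6 (-1.51) were lower as well. Of the 5 delta-2 protocadherins 3 were lower at P14 and none was higher. Pcdh8 (arcadlin, which neuronal activity induces) was at 62.3 ± 2.01 CPM at P0 and 62.3 ± 1.36 CPM at P14 (SD, n = 3 each). Its log2 difference was -0.01, with a 95% interval from -0.16 to 0.14.

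In the P0 knockout forebrain 4 members fell and none rose, among 31 tested: the type II cadherins Cdh6, Cdh7 and Cdh12 and the delta-1 protocadherin Pcdh11x. Over all genes 0.909% were called in either direction and 0.717% were called lower, that is 31 genes higher and 116 lower, or 115 and 254 with an offset for GC content. DESeq2 called 7 members, none higher, and 2.36% of all genes (109 higher and 273 lower). Cdh6, a type II cadherin that marks borders in the early forebrain, stood at 59.5, 52.7 and 50.9 CPM in the wild types and 35.0, 37.1 and 33.5 CPM in the knockouts. Every knockout was below every wild type, and the log2 fold change of -0.63 (SE 0.09) had an edgeR adjusted p of 0.0178. Cdh12 stood at 14.9, 15.6 and 16.3 CPM in the wild types and 9.38, 9.86 and 7.50 CPM in the knockouts. This was the largest called fall of a member at P0, with a log2 fold change of -0.82, an SE of 0.14 and an edgeR adjusted p of 0.0214. Cdh7 stood at 22.9, 23.0 and 25.8 CPM in the wild types and 15.5, 16.9 and 17.7 CPM in the knockouts. Its groups were apart and its log2 fold change was -0.52 (SE 0.11, edgeR adjusted p 0.0453). Pcdh11x stood at 80.8, 80.1 and 74.0 CPM in the wild types and 61.6, 54.3 and 45.4 CPM in the knockouts. Its knockout libraries spread over more than 15 CPM but stayed below the wild types, with a log2 fold change of -0.55 (SE 0.10, edgeR adjusted p 0.0339).

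The other members at P0 leaned the same way without passing the test. Of the 31 tested members 28 had a negative log2 fold change, with a median of -0.25 against -0.00034 over all genes tested. In 15 members every knockout was below every wild type, where 11.1% of all genes did so. An unadjusted p under 0.05 was reached by 16 members with a lower and 1 with a higher level in the knockouts, against 9.17% and 6.95% of all genes. By role, an unadjusted p under 0.05 with lower levels was reached by 8 of 12 type II cadherins, 2 of 5 type I cadherins, 3 of 5 delta-2 and 2 of 4 delta-1 protocadherins. Among the delta-2 protocadherins, Pcdh19, whose human counterpart is mutated in an X-linked epilepsy, stood at 133, 115 and 112 CPM in the wild types and 93.3, 103 and 92.2 CPM in the knockouts (log2 fold change -0.33, edgeR adjusted p 0.0855). Pcdh17 had a log2 fold change of -0.31 (edgeR adjusted p 0.0977) and Pcdh10 of -0.26 (0.141). The abundant Cdh2 was at 294, 262 and 263 CPM in the wild types and 249, 248 and 234 CPM in the knockouts, a log2 fold change of -0.17 (SE 0.07, edgeR adjusted p 0.274). Cdh8 was at 121, 126 and 109 CPM against 106, 105 and 93.7 CPM, with -0.22 (edgeR adjusted p 0.215). Cdh10 (-0.25), Pcdh7 (-0.24) and Pcdh15 (-0.37), which with Cdh23 forms the tip links of hair cells, were also apart between the groups with an unadjusted p under 0.05. Pcdh9 was at 85.2, 85.4 and 85.5 CPM in the wild types and 81.8, 84.1 and 68.9 CPM in the knockouts. Pcdh1 (103, 113 and 117 against 101, 105 and 103 CPM), Cdh9 (10.3, 10.7 and 9.47 against 7.95, 7.38 and 9.74 CPM) and Pcdh20 (18.9, 13.9 and 15.3 against 15.5, 17.1 and 13.9 CPM) overlapped between the groups. The endothelial cadherin Cdh5 was at -0.33 (edgeR adjusted p 0.234). Pcdh8 went the other way in every library, at 64.1, 62.6 and 60.1 CPM in the wild types and 74.8, 71.4 and 68.4 CPM in the knockouts, a log2 difference of 0.19 (edgeR adjusted p 0.250).

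The P0 calls rested on few libraries. The 4 called members were lower in both series of library numbers, which follows from every knockout lying below every wild type. Leaving out wild-type replicate 1, wild-type replicate 2 or knockout replicate 1 left 0 members called by edgeR, as it left 2, 1 and 1 of all genes. Leaving out knockout replicate 2 left Cdh6 alone, where 0.0906% of all genes were called. Without wild-type replicate 3 there were 3, Cdh6, Cdh12 and Pcdh11x, against 1.51% of all genes. Without knockout replicate 3 there were 7, the 4 named above with Cdh18, Cdh24 and Pcdh19, against 4.69% of all genes. Under the 11 other settings Cdh6 kept its call in all, Cdh12 in all but the larger strand column (edgeR adjusted p 0.109), Pcdh11x in all but the non-robust fit (0.0564) and Cdh7 in all but these (0.137 and 0.0640). Among the 11, the threshold of 0.1 reuses the same fit and cannot remove a call. In the 4 libraries numbered 1407 to 1410 the log2 difference of knockout and wild-type means was negative for 26 of the 31 members, with a median of -0.24. In the pair 1415 and 1416, 1 library of each genotype and so without a test, it was negative for 25, with a median of -0.22. Both series had lower knockout values for 22 members, with -0.63 and -0.60 for Cdh6, -0.49 and -0.53 for Cdh7, -0.63 and -1.07 for Cdh12, and -0.47 and -0.70 for Pcdh11x. Among all genes tested, 49.8% were lower in the first series and 48.3% in the second. Over all genes 27.2% were lower in both. The sign differed between the series for 7 members (Cdh3, Cdh9, Cdh13, Cdh22, Cdh24, Pcdh12 and Pcdh20), by most for Cdh22 (-0.31 and 0.60) and Cdh24 (-0.44 and 0.30). With the series as a term 9 members were called, all lower, against 2.87% of all genes, and within the first series alone 10 were called, against 12.9% of all genes.

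**Figure D2:**
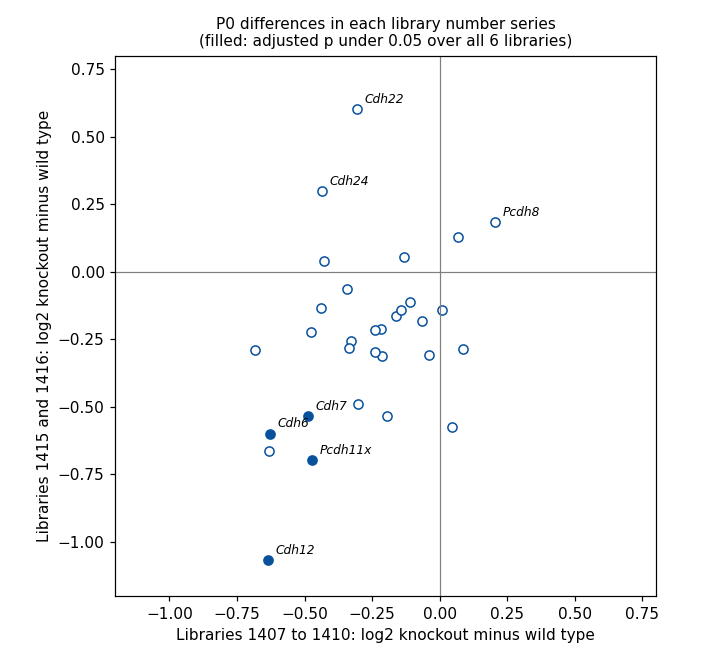
Log2 difference of knockout and wild-type CPM (plus 0.5) at P0 for the 31 tested members, in the libraries numbered 1407 to 1410 (horizontal, means of 2 against 2) and in the pair 1415 and 1416 (vertical). The 4 called members (filled) lie in the lower left corner, and 7 members, Cdh22 and Cdh24 farthest from 0, have opposite signs on the axes.

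Members are long genes, and long genes leaned lower at P0. The median genomic span of the 31 tested members was 145 kb, against 21.5 kb over all genes tested. The 2304 tested genes that span at least 100 kb had a median log2 fold change of -0.10, and 2.34% of them were called lower. The 19 members that span as much had a median of -0.27. The shorter members had -0.17, and all tested genes under 100 kb, members included, 0.02. At P14 the genes spanning at least 100 kb had a median of 0.01, with 1.72% called lower and 2.94% called higher. Marker levels moved with genotype at P0 as well. The 6 astrocyte markers summed to 420 to 565 CPM in the wild types and 374.99 to 384 CPM in the knockouts, with 5 of 6 lower at an unadjusted p under 0.05, and the 6 oligodendrocyte precursor markers to 241 to 284 CPM and 210.1 to 216 CPM, with 3 of 6. The cortical excitatory markers summed to 621 to 755 CPM in the wild types and 776 to 895 CPM in the knockouts. Striatal projection markers summed to 159 to 185 CPM and 142 to 149.6 CPM, choroid plexus markers to 668 to 847 CPM and 901 to 995 CPM, CA pyramidal markers to 191 to 201 CPM and 173 to 189 CPM, and dentate granule markers to 66.0 to 69.7 CPM and 57.4 to 64.3 CPM. Of all markers, edgeR called 1 higher at P0, the cortical excitatory Fezf2. It called 3 lower: 1 astrocyte marker, the thalamic Prkcd and the microglial P2ry12. Prkcd and P2ry12 were each the only call in a list of 6, and the sums of both lists overlapped between the genotypes. None of these markers was at 0 in a P0 library, and the part of span or of these cells in the members' values was not tested.

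In the P14 knockout hippocampus 6 members passed the test among 33, of which 4 rose (Cdh4, Cdh13, Cdh18 and Cdh22) and 2 fell (Cdh9 and Pcdh20), where 1.99% of all genes were called, 1.21% higher and 0.773% lower. Cdh4 stood at 16.7, 19.7 and 20.5 CPM in the controls and 38.8, 35.2 and 31.5 CPM in the knockouts. The groups were far apart, with a log2 fold change of 0.90 (SE 0.11, edgeR adjusted p 0.000547). Cdh22, a type II cadherin of the brain, stood at 13.3, 11.8 and 9.81 CPM in the controls and 25.2, 26.3 and 21.2 CPM in the knockouts. It had the largest rise of the members, with a log2 fold change of 1.07 (SE 0.13, edgeR adjusted p 0.000524). Cdh13 (T-cadherin), which is anchored by a lipid and has no cytoplasmic tail, stood at 63.5, 63.0 and 63.7 CPM in the controls and 87.0, 85.2 and 85.3 CPM in the knockouts. The replicates were tight and the log2 fold change was 0.45 (SE 0.07, edgeR adjusted p 0.00355). Cdh4, Cdh13 and Cdh22 kept their calls in each of the 6 fits that left out 1 library and under all 9 other settings tried. Among the 9, the threshold of 0.1 reuses the same fit and cannot remove a call. Cdh18 was at 6.82, 6.48 and 3.90 CPM in the controls and 8.65, 11.2 and 11.6 CPM in the knockouts, with no overlap. Its log2 fold change was 0.89 (SE 0.20, edgeR adjusted p 0.0338). The call was kept only without control replicate 1 or control replicate 3 among those 6 fits, and was lost with the larger strand column and the non-robust fit.

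The 2 members that fell at P14 were Cdh9, of the mossy fibre synapse, and Pcdh20, whose role in the brain is less known. Cdh9 stood at 40.8, 37.9 and 39.4 CPM in the controls and 28.6, 30.6 and 26.4 CPM in the knockouts. The groups did not overlap, with a log2 fold change of -0.45 (SE 0.09, edgeR adjusted p 0.0133). Pcdh20, at 165, 145 and 146 CPM in the controls and 121, 121 and 113 CPM in the knockouts, had a log2 fold change of -0.35 (SE 0.07, edgeR adjusted p 0.0225). With an offset for GC content both lost their calls (Cdh9 at -0.34, edgeR adjusted p 0.0756, and Pcdh20 at -0.26, edgeR adjusted p 0.113). With the larger strand column Cdh9 lost its call as well. Cdh9 kept it only without control replicate 3 or knockout replicate 2, and Pcdh20 only without control replicate 3, among the fits that left out 1 library.

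The families did not lean one way at P14. Of 33 tested members 17 had a positive and 16 a negative log2 fold change, with a median of 0.01 against -0.01 over all genes. In 7 members every knockout was above every control and in 10 below, where 9.43% and 10.6% of all genes did so. An unadjusted p under 0.05 was reached by 7 members with higher and 8 with lower levels, against 7.84% and 7.40% of all genes. Besides the called members, the groups were apart with an unadjusted p under 0.05 for Cdh6 (0.34, edgeR adjusted p 0.110), Cdh7 (0.63, 0.0900) and Pcdh10 (0.31, 0.0515), all higher. Cdh23 (-0.78, edgeR adjusted p 0.0724), Cdh19 (-0.50, 0.293), Cdh12 (-0.25, 0.317), Cdh8 (-0.24, 0.177), Cdh10 (-0.21, 0.210) and Pcdh9 (-0.16, 0.286) were lower in the same sense. Pcdh10, which recruits the WAVE complex, stood at 128, 127 and 142 CPM in the controls and 156, 174 and 159 CPM in the knockouts. Without control replicate 3 it was called (0.37, edgeR adjusted p 0.00141). Cdh12 was at 15.8, 15.1 and 17.6 CPM in the controls and 14.1, 13.1 and 13.2 CPM in the knockouts, and Cdh8 at 96.1, 81.8 and 94.0 CPM against 80.6, 68.9 and 78.2 CPM. Pcdh11x was at 17.8, 23.1 and 23.9 CPM in the controls and 26.6, 19.7 and 19.6 CPM in the knockouts, which overlapped. Pcdh9 was at 139, 133 and 129.55 CPM in the controls and 123, 117 and 117 CPM in the knockouts. Pcdh1, the most abundant member there, was at 299, 294 and 369 CPM in the controls and 312, 332 and 318 CPM in the knockouts, which overlapped. Its log2 fold change was 0.01, with a 95% interval from -0.16 to 0.18. Cdh2 was at 125, 125 and 129 CPM in the controls and 117, 125 and 116 CPM in the knockouts (-0.07, edgeR adjusted p 0.708).

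**Figure D3:**
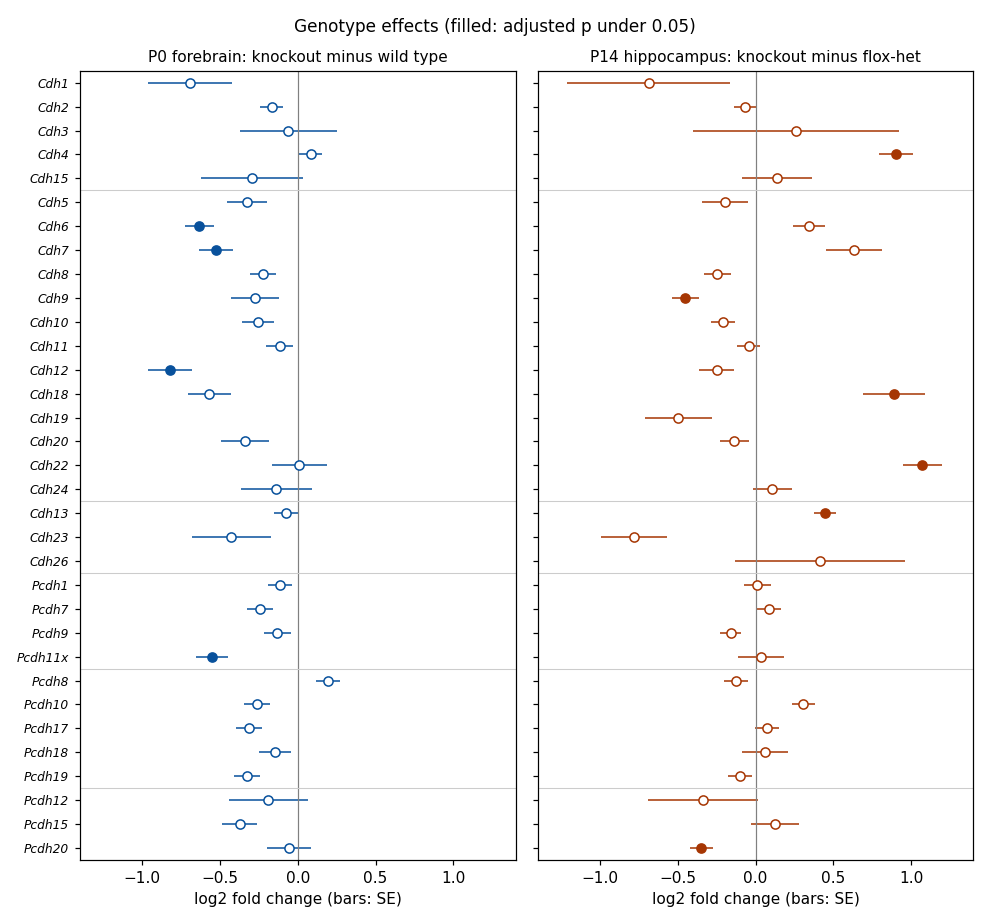
Log2 fold change with its SE for each tested member at P0 (left) and P14 (right), grouped by family with grey lines; filled points have an adjusted p under 0.05. At P0, 28 of 31 points lie left of 0, and at P14 the type II cadherins spread to both sides, from -0.50 for Cdh19 to 1.07 for Cdh22.

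Markers of hippocampal fields and of neighbouring tissue moved with genotype at P14. The 6 dentate granule markers were all called lower and summed to 324 to 369 CPM in the controls and 189 to 216 CPM in the knockouts. The 7 striatal projection markers were all higher, 5 of them with an unadjusted p under 0.05 and 1 called, and summed to 49.8 to 68.0 CPM in the controls and 86.2 to 149 CPM in the knockouts. The cortical excitatory markers summed to 435 to 470.4 CPM in the controls and 462 to 500.3 CPM in the knockouts, with 2 of 6 called higher. The thalamic markers summed to 172 to 205.5 CPM and 140.1 to 146 CPM, with 2 of 5 tested called lower. The CA pyramidal markers summed to 654 to 696 CPM and 607 to 645 CPM, with 1 of 6 called lower. The interneuron markers summed to 657 to 779 CPM and 608 to 702 CPM, which overlapped, with 1 of 6 called lower. At an unadjusted p under 0.05, 1 interneuron marker was higher and 2 were lower. Over all marker lists, 13 of 86 tested markers were called at P14, 3 higher and 10 lower, against 1.99% of all genes. The endothelial markers summed to 178 to 185 CPM and 137 to 153 CPM, with 0 of 6 called by edgeR, 1 by DESeq2 (Kdr) and 4 lower at an unadjusted p under 0.05, and Cdh5 had a log2 fold change of -0.19 (edgeR adjusted p 0.581). No defining marker of these lists was at 0, apart from the thalamic marker Gbx2 in control replicates 1 and 3. The part of these cells in the members' values was not tested. Choroid plexus markers summed to 149, 966 and 2540 CPM in control replicates 1 to 3, and Cdh3 (P-cadherin, epithelial) was at 0.231, 1.23 and 2.95 CPM in the same libraries.

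The genotype effect differed between the contexts for 7 of 34 tested members, against 1.79% of all genes, and in each case it was more positive at P14, where 1.37% of all genes were called in that direction and 0.423% in the other. At an unadjusted p under 0.05 the effect was more positive at P14 for 12 members, against 8.42% of all genes, and more negative for 2 (Pcdh8 and Pcdh20), against 6.90%. The 7 were Cdh4, Cdh6, Cdh7, Cdh13, Cdh18, Cdh22 and Pcdh10. Cdh6, which was lower at P0 (-0.63), was at 18.9, 18.5 and 20.0 CPM in the P14 controls and 24.4, 21.7 and 26.3 CPM in the P14 knockouts. Its difference between effects was 0.96 on the log2 scale (SE 0.14, edgeR interaction adjusted p 0.000668), the smallest p among the members. Cdh7 was at 4.79, 4.24 and 4.43 CPM in the P14 controls and 6.31, 8.41 and 5.91 CPM in the P14 knockouts. Its effects of -0.52 at P0 and 0.63 at P14 differed by 1.14 (SE 0.20, edgeR adjusted p 0.00388). Cdh18 was at 15.5, 14.3 and 13.3 CPM in the P0 wild types and 8.67, 9.53 and 10.8 CPM in the P0 knockouts. It had the largest difference, 1.44 (SE 0.25, edgeR adjusted p 0.00388). Pcdh10 was at 246, 229.5 and 212.96 CPM in the P0 wild types and 200.02, 202 and 173 CPM in the P0 knockouts, and its effects differed by 0.56 (SE 0.12, edgeR adjusted p 0.0150). In these 4 genes, of 31 members tested in both contexts, the knockouts lay below all controls at P0 and above all controls at P14, as in 1.34% of all genes tested in both. None of the 4 passed the test in both contexts. Pcdh8 had the reverse pattern, as in 0.825% of all genes, with 60.7, 62.8 and 63.3 CPM in the P14 controls and 59.8, 56.3 and 53.6 CPM in the P14 knockouts, and Cdh8, Cdh10, Cdh12 and Pcdh9 were below all controls in both contexts, as in 1.55%.

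For the other 3 the P0 groups overlapped. Cdh4 was at 139, 142 and 127 CPM in the P0 wild types and 147, 147 and 139 CPM in the P0 knockouts, and its effects differed by 0.80 (SE 0.13, edgeR adjusted p 0.00176). Cdh13 was at 167, 156 and 144 CPM in the P0 wild types and 149.7, 145 and 149.7 CPM in the P0 knockouts, with a difference between effects of 0.51 (SE 0.10, edgeR adjusted p 0.0113). Cdh22 was at 19.9, 25.8 and 17.2 CPM against 19.2, 17.3 and 26.3 CPM at P0, with a difference of 1.04 (SE 0.24, edgeR adjusted p 0.0338). Cdh4, Cdh6, Cdh7, Cdh13 and Cdh18 kept the interaction call in each of the 12 fits that left out 1 library, Pcdh10 in 10 and Cdh22 in 5. Pcdh11x (0.57, edgeR adjusted p 0.142) and Cdh12 (0.55, 0.124), called lower at P0, did not pass the interaction test, nor did Cdh9 (-0.20, 0.594) and Pcdh20 (-0.31, 0.316), called lower at P14.

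**Figure D4:**
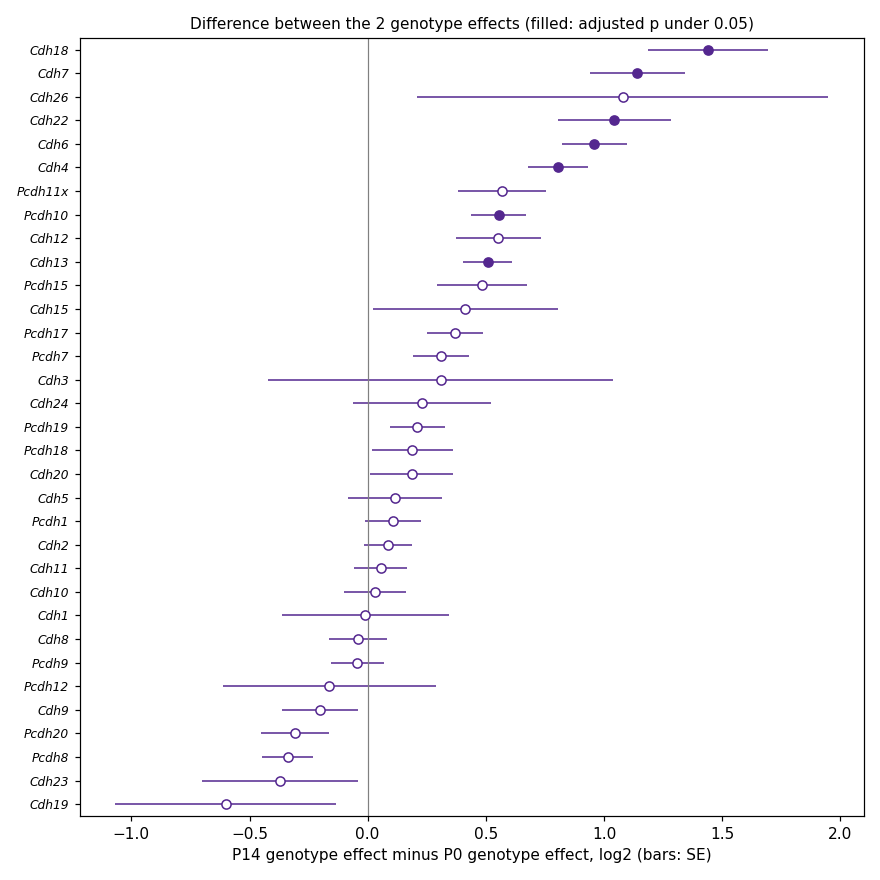
Difference between the P14 and P0 genotype effects with its SE, on the log2 scale, for the tested members, ordered by size; filled points have an adjusted p under 0.05, and Cdh17 is left out because its SE exceeds 1. All 7 filled points lie right of 0, between 0.51 for Cdh13 and 1.44 for Cdh18.

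**Figure D5:**
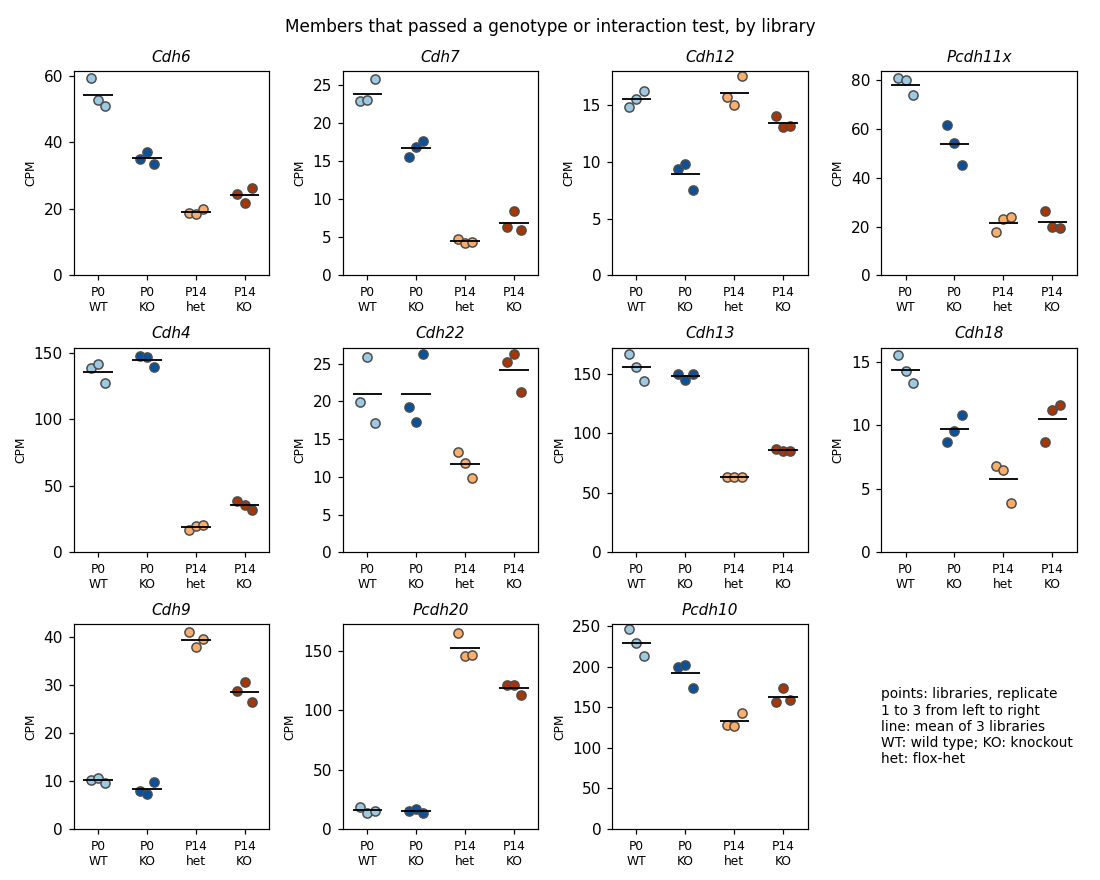
CPM of the 11 members that passed a genotype or interaction test, 1 point per library and a line at the mean of 3, for P0 wild type and knockout and P14 flox-het (het) and knockout, each axis starting at 0. In Cdh6, Cdh7, Cdh18 and Pcdh10 the knockout points lie below the wild types at P0 and above the flox-het points at P14, while Cdh9 and Pcdh20 are high at P14 and lower in its knockouts.

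Levels in the control groups and the P14 genotype effects share the P14 control libraries, so they are given side by side only. The log2 differences of P14 from P0 controls and of P14 knockouts from P14 controls were -2.85 and 0.90 for Cdh4, -1.30 and 0.45 for Cdh13, -1.33 and 0.89 for Cdh18, -0.85 and 1.07 for Cdh22, 1.95 and -0.45 for Cdh9, and 3.24 and -0.35 for Pcdh20.

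Of the called members not placed in the next paragraph, the annotation puts Cdh13 at chr8:118283733-119324921, Pcdh10 at chr3:45378398-45435623, Pcdh11x at chrX:120290259-120910619 and Pcdh20 at chr14:88464743-88471396. Reads were counted without strand, and annotated antisense exons cover 21.1% of the exon bases of Pcdh7, 9.61% of Pcdh8 and 6.33% of Cdh9, while Gm49685 on the same strand covers 3.14% of Cdh12. Reads of these partners cannot be told apart there.

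Several type II genes are neighbours on chromosome 15. Cdh6 (ENSMUSG00000039385, chr15:13028701-13173675), Cdh9 (chr15:16728756-16857094), Cdh10 (chr15:18818947-19014236), Cdh12 (chr15:20449265-21589533) and Cdh18 (chr15:22549022-23474418) follow each other on GRCm38. At P0 all 5 had negative log2 fold changes, from -0.82 for Cdh12 to -0.25 for Cdh10, and 2 of them were called. At P14 Cdh18 rose and Cdh9 fell, and Cdh6 (0.34), Cdh10 (-0.21) and Cdh12 (-0.25) did not pass the test. Of the chromosome 1 group, Cdh7 (chr1:109982431-110140157) was called lower at P0, and Cdh20 (chr1:104768529-104995481), with -0.34 at P0 and -0.14 at P14, passed in neither context. Their neighbour Cdh19 (chr1:110888326-110977584) had too few counts for a test at P0. At P14 Cdh19 was at -0.50 (edgeR adjusted p 0.293) and Cdh7 at 0.63 (0.0900). Cdh4 (chr2:179442431-179899373) and Cdh22 (chr2:165111507-165234853), each called higher at P14, both lie on chromosome 2. Cdh26 (chr2:178430531-178487366) lies there too and was at 0.41 at P14 (edgeR adjusted p 0.790), with at most 12 counts in any P14 library.

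Catenins, linkers, effectors and enzymes that work with cadherins were followed as a list, together with giant cadherins and their regulators. Of 53 genes listed as partners, 1 was called at P0 among 51 tested and 0 at P14 among 52 tested by edgeR, against 0.909% and 1.99% of all genes. At an unadjusted p under 0.05 there were 25.5% at P0 and 13.5% at P14, against 16.1% and 15.2% of all genes. DESeq2 called 2 at P0 (Pkp4 and Ret, both lower) and 1 at P14 (Ctnnd2, higher), against 2.36% and 3.1% of all genes. The called gene was Ret, the receptor tyrosine kinase of the GDNF ligands and itself a carrier of cadherin-like domains, at 12.5, 15.8 and 12.8 CPM in the P0 wild types and 5.73, 7.79 and 6.90 CPM in the P0 knockouts (log2 fold change -1.01, SE 0.16, edgeR adjusted p 0.0197). Of 17 catenins and junction linkers 0 were called by edgeR in either context (4 at P0 and 2 at P14 at an unadjusted p under 0.05), with medians of -0.07 at P0 and 0.09 at P14. Of the 11 WAVE complex and other protocadherin effectors 0 were called by edgeR or DESeq2 (3 and 2 at an unadjusted p under 0.05), with medians of -0.04 and -0.04. Of the 9 cleaving and trafficking enzymes 0 were called by either tool (1 and 1 at an unadjusted p under 0.05), with medians of 0.00 and -0.01. Of the 16 giant cadherins and regulators 15 were tested in each context, and Ret at P0 was the only call by either tool. At an unadjusted p under 0.05, 3 of them were higher and 2 lower at P0, and 2 were higher at P14. Their medians were -0.08 at P0 and 0.11 at P14. The interaction test called 1 of 52 tested partners, Pkp4, a relative of p120 catenin (difference 0.43, edgeR adjusted p 0.0358). That share, 1.92%, is near the 1.79% of all genes. DESeq2 called 4 of the 52 in the interaction, Ctnnb1, Ctnnd2, Pkp4 and Ret, against 2.92% of all genes.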

How the data were processed

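The deposited tables hold read counts per gene, unnormalized, from STAR 2.7.5a (per the submitters' processing notes, which also name edgeR 3.12), with genes of GRCm38 annotation release 102. The unstranded column was used, since each strand column held about 50% of the counts in both strand columns together. Differences were tested in edgeR 4.0.16 (R 4.3.3, limma 3.58.1) by the quasi-likelihood test per context, after filterByExpr and TMM scaling, with Benjamini-Hochberg adjustment over all genes tested and a threshold of 0.05. The interaction was fitted on all 12 libraries. The SE is the log2 fold change divided by the square root of F, and intervals are 95%. CPM were scaled by TMM over all libraries. The steps were tested on simulated data.

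Members and lists were chosen with earlier results of these data known. Every member could be named: those called, and the 3 highest per kilobase in each control group, have values in every library, and the others have single values where the groups did not overlap at an unadjusted p under 0.05. Pcdh8, Pcdh19 and Cdh3 were also given by library, chosen after their values were seen. Members without a test for low counts were Cdh16, Cdh17, Cdh19 and Cdh26 at P0, and Cdh16 and Cdh17 at P14. Exon lengths came from GENCODE vM21 and promoters from RefSeq (GRCm38.p6).

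Counts differed between replicates of a group by more than sampling noise (chi-square per degree of freedom 2.93 to 17.5), so each library was 1 sample. Replicates are separate mice, and replicate numbers follow accession order and pair no libraries. Alternatives were the larger strand column, RLE scaling, DESeq2 1.42.0, other filters, a non-robust fit, 1 fit on all libraries, a GC offset, a threshold of 0.1, the library number series and leaving out each library. The series term in the interaction was chosen after seeing the data.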

Additional observations from a re-analysis of the deposited data

Results flagged for a closer look

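For 7 of 34 tested members the genotype effect differed between the contexts by the edgeR interaction test, against 1.79% of all genes. Differences are given as the P14 hippocampus effect minus the P0 forebrain effect on the log2 scale. The differences were 1.44 for Cdh18, 1.14 for Cdh7, 1.04 for Cdh22, 0.96 for Cdh6, 0.80 for Cdh4, 0.56 for Pcdh10 and 0.51 for Cdh13. All were positive. For Cdh6, Cdh7, Cdh18 and Pcdh10 the knockouts lay below the controls at P0 and above them at P14, as in 1.34% of all genes tested in both. For Cdh4, Cdh13 and Cdh22 the P0 groups overlapped. Tissue, age, Cre line and control genotype differ between the contexts and cannot be told apart.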

How the results depend on the processing

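With 3 libraries a group, P0 calls were the least stable. Against 4 members called at P0, 2 were called with the larger strand column and with the non-robust fit. There were 7 with DESeq2, with no filter on low counts and at a threshold of 0.1, 9 with a term for the number series, and 10 in the libraries numbered 1407 to 1410 alone. Leaving out 1 library gave 0 to 7. The P0 calls over all genes, 147, ranged from 1 to 775 when 1 library was left out, and were 50 with the non-robust fit, 369 with the GC offset, 382 with DESeq2, 625 with no filter, 284 in 1 fit on all libraries, 465 with the series term and 2107 in the first series. At P14, 6 members were called, 4 to 9 under the other settings and 3 to 9 with 1 library left out, and the calls over all genes, 342, ranged from 104 to 1808, the highest without control replicate 3, with 814 under no filter and 534 with DESeq2. The interaction called 7, or 5 to 9, and the calls over all genes, 326, ranged from 125 to 905 with 1 library left out, with 531 for DESeq2 and 646 with no filter. The count between control groups, 23, ranged from 21 to 26. No tested direction turned for a called member. The cause of these shifts was not tested. No paired analysis was possible because the labels give no replicate numbers shared between groups. The number series at P0 was the one block fitted as a term. The labels also give mouse numbers. At P0 those of knockout replicates 1 and 2 lie above those of the wild types and knockout replicate 3, so they align in part with genotype. At P14 that of knockout replicate 2 lies below all others. A grouping by mouse number was not tested.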
